A study of Homo sapiens with 12 samples.

Results

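The genes described here are the receptor tyrosine kinases other than the VEGF receptors. They were taken by gene symbol from the count table, where all 54 listed receptors were found among 57500 genes, and 14 of them are Eph receptors. The study sequenced ribosomal RNA-depleted total RNA from 3 established human cancer cell lines, with 3 libraries in each of 4 groups that the labels call biological replicates. SW480 and SW620 are colorectal carcinoma lines from 1 patient, SW480 from the primary tumour and SW620 from a metastasis, both untreated and grown in DMEM. PEO4 is an ovarian carcinoma line grown in RPMI 1640, either in control medium or with 10 ng/mL recombinant TGF-β for 6 days. All media held 10% serum. Each tumour stage or tissue is represented by 1 line, so a difference between SW480 and SW620 is a difference between those lines. The labels do not say whether replicates were separate cultures, so p-values measure only the spread between these libraries.

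Most receptor tyrosine kinases are single-pass membrane proteins that bind a ligand outside the cell, pair up and phosphorylate tyrosines on their own tails. These tyrosines recruit adaptors that feed the RAS-ERK and PI3K-AKT pathways. Eph receptors, the largest family, bind ephrins held on the surface of neighbouring cells and act in cell sorting and boundary formation, and EPHB2 and EPHB3 are known for placing cells along the intestinal crypt. Some members of the list (ERBB3, PTK7, ROR1, RYK, EPHA10, EPHB6) have weak or no known kinase activity and work mainly through partners.

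Levels are given in CPM, the counts of a gene per 1e6 counts assigned to genes in its library, and library totals were 14.5 to 22.0 in units of 1e6 counts. The detection floor was set at 3 counts, which is 0.136 CPM in the deepest and 0.206 CPM in the shallowest library and reflects counting error alone. Markers of the colorectal lines (CDX2, CDX1, VIL1, CDH17) summed to 36.9 to 66.1 CPM in SW480 and 242 to 278 CPM in SW620. In PEO4 control their sum was 0.398 to 2.35 CPM and 3 of the 4 were at or under the floor. Ovarian markers (PAX8, WT1, EMX2, MUC16) summed to 4372 to 7592 CPM in PEO4 control and 2246 to 3892 CPM with TGF-β. Their sum was 86.4 to 120 CPM in SW480, above its colorectal marker sum, and 72.9 to 99.9 CPM in SW620, below it. A sum can rest mostly on 1 gene and does not give the level of each marker. In PEO4 with TGF-β, 2 of the 4 ovarian markers passed the edgeR test described below, where 2.26% of all genes tested passed. Both were lower, neither by 2-fold, and the other 2 did not pass. Leukocyte markers stayed at or under 6.13 CPM in sum and endothelial markers at or under 10.5 CPM in every library. Of the fibroblast and pericyte markers (DCN, LUM, THY1, RGS5), THY1 alone was high in PEO4, at 215 to 319 CPM against at most 3.04 CPM in the SW lines. In PEO4, DCN and LUM were at most 0.509 CPM and RGS5 at most 1.19 CPM, and LUM was higher in SW620, at 5.77 to 10.5 CPM. Summed, the list gave 216 to 320 CPM in PEO4 and at most 16.3 CPM in the SW lines. For 42 genes, PEO4 held 50 CPM or more and SW620 replicates 1 and 2 held at most 0.5% of that level. SW620 replicate 3 held these genes at a median of 1.09% of their PEO4 level, against 0.133% in replicates 1 and 2. The value for replicates 1 and 2 was kept low by that choice of genes. With replicate 1 or 2 as the library left out of the choice, 0 genes met the rule, so neither could be compared in the same way. The 3 SW480 libraries, each left out of the choice in turn, held 0.211% to 0.296%. The cause was not tested. Receptors that PEO4 expressed and SW620 held near 0 are therefore also given without that library. In bulk RNA, fewer cells of a kind and less RNA per cell cannot be told apart.

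**Figure D1:**
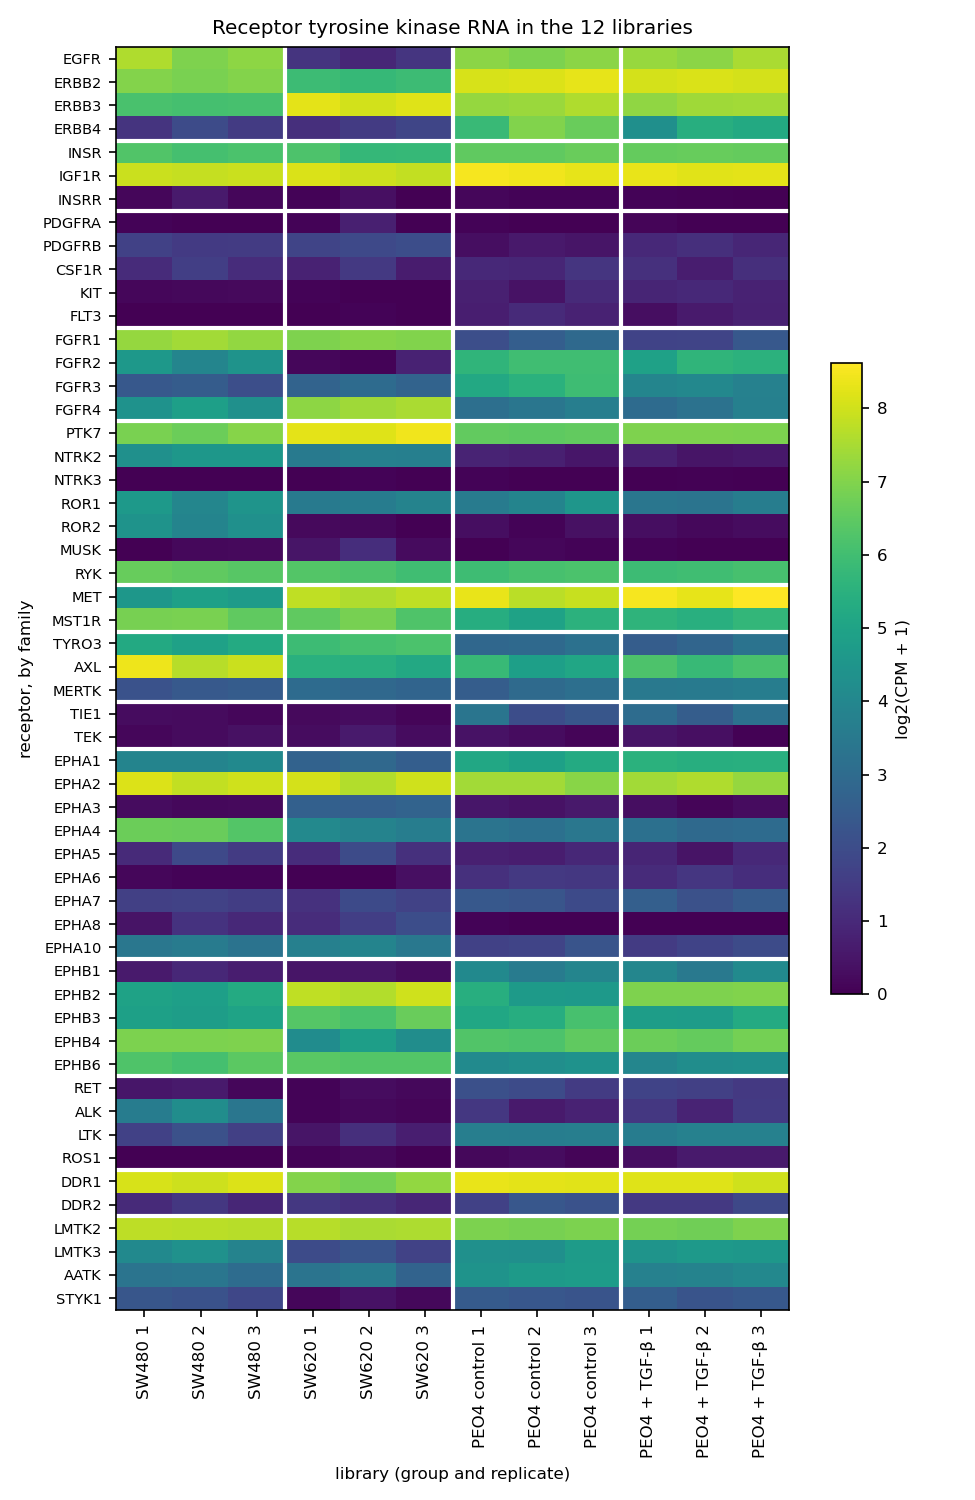
Level of each of the 54 receptors (vertical axis, grouped by family, white lines between families) in each of the 12 libraries (horizontal axis), as log2(CPM + 1) on the colour scale. EPHA2, IGF1R and LMTK2 are bright in every library, while 8 receptors are dark throughout, and the blocks for EGFR, MET and FGFR4 change between SW480 and SW620.

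A small core of receptors was high in every group, and the lines differed in what they added to it. Of the 54 receptors, 16 had a mean above 10 CPM in all 4 groups and 4 (IGF1R, EPHA2, DDR1 and LMTK2) were above 100 CPM in all of them. At the other end, INSRR, PDGFRA, KIT, FLT3, NTRK3, MUSK, TEK and ROS1 had a mean of 1 CPM or less in all 4 groups. These include PDGFRA, a PDGF receptor of connective tissue, and KIT and FLT3, the receptors for stem cell factor and FLT3 ligand, best known from blood. PDGFRB, the other PDGF receptor, was low as well but above that limit, with means of 1.92 CPM in SW480 and 2.76 CPM in SW620.

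To compare genes with each other, levels were divided by exon length (CPM per kb of exon). The length joins all annotated exons of a gene and can exceed that of any 1 transcript, so the order of genes depends on it. Lengths were 4159 bases for EPHA2 and 9122 bases for DDR1. In SW480 their means before this division were 256 and 268 CPM. EPHA2, an Eph receptor that is often abundant in epithelial tumours, had the highest mean level per kb in SW480 (61.6 ± 7.02, SD, n = 3), SW620 (57.4 ± 9.15) and PEO4 control (38.6 ± 4.95). In SW480 it was followed by AXL (50.8 ± 13.0 CPM per kb), whose library values overlapped those of EPHA2, and by DDR1 (29.4 ± 2.16). In SW620 EPHA2 lay above all other receptors, and PTK7 (35.3 ± 3.00), FGFR4 (34.1 ± 4.38), ERBB3 (31.6 ± 2.59) and MET (30.2 ± 2.61 CPM per kb) came next with neighbours in this order overlapping. AXL and DDR1, high in the SW480 order, were not among the first 10 in SW620. In PEO4 control, EPHA2, MET (36.5 ± 8.32) and DDR1 (34.0 ± 1.23) overlapped as neighbours, followed by ERBB2 (28.2 ± 1.94) and IGF1R (24.4 ± 1.66 CPM per kb). With TGF-β, MET (50.5 ± 5.70) and EPHA2 (41.4 ± 4.79 CPM per kb) led and overlapped each other. Summed over all 14 Eph receptors, the level per kb was 121 ± 8.01 in SW480, 118 ± 12.3 in SW620, 78.8 ± 1.69 in PEO4 control and 90.3 ± 1.82 with TGF-β.

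Some receptors set the ovarian line apart from the colorectal pair, although medium and tissue differ together and no test was made. FGFR1, an FGF receptor common in mesenchymal cells, had 148 to 170 CPM in SW480 and 123 to 132 CPM in SW620, but 2.34 to 6.79 CPM over the 6 PEO4 libraries. ERBB4, a receptor for neuregulins, had 55.8 to 125 CPM in PEO4 control and at most 2.92 CPM in the SW lines. EPHB1 stood at 10.1 to 16.3 CPM in PEO4 and under 1 CPM in every SW library, and TIE1, an endothelial receptor, at 3.09 to 9.21 CPM in PEO4 against at most 0.217 CPM. The ranges of FGFR1, ERBB4, EPHB1 and TIE1 did not overlap between the PEO4 and SW libraries. These are examples picked by their levels, and other receptors did not overlap either. FGFR3 had at most 7.02 CPM in the SW lines and at least 12.9 CPM in PEO4, and TYRO3 at least 29.4 and at most 8.64 CPM. The share of all genes without overlap between PEO4 and the SW lines was not counted.

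The upstream sequences of 4 receptors are shown because the results turn on these genes. EPHB2 passed the test in both comparisons and FGFR3 was the receptor that fell most with TGF-β, while EGFR and MET are growth factor receptors that changed in opposite directions between the SW lines. Each sequence is the 250 bases before the gene start in RefSeq (GRCh38.p14), all on the + strand, at chr1:22710588-22710837 (EPHB2), chr4:1793043-1793292 (FGFR3), chr7:55018767-55019016 (EGFR) and chr7:116671946-116672195 (MET). Capitals mark every match, on either strand, to 6 motifs searched: AP-1 (TGANTCA), E-box (CACCTG), TCF/LEF (CTTTGA), TEAD (GGAATG), SMAD (CAGACA) and SP1 (GGGCGG).
EPHB2: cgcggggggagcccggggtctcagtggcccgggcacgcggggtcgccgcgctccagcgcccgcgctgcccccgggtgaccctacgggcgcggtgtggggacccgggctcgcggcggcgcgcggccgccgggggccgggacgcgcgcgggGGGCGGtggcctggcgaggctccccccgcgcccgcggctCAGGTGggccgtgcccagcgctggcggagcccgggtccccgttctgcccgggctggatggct
FGFR3: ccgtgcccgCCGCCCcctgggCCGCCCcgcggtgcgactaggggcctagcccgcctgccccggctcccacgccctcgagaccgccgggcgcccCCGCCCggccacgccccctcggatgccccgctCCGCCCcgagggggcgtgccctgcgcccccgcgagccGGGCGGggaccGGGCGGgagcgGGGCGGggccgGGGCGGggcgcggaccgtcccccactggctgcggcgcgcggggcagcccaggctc
EGFR: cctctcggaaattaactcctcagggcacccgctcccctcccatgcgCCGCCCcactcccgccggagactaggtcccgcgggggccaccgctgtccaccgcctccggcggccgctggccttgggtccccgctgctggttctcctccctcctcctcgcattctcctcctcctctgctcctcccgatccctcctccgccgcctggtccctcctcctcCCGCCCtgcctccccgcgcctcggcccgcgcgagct
MET: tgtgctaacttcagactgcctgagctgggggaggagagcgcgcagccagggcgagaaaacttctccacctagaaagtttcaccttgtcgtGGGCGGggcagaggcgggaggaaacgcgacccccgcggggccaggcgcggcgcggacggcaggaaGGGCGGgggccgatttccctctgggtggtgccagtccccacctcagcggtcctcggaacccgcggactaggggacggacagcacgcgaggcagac
EPHB2 held 1 SP1 match and 1 E-box match, and FGFR3, EGFR and MET held 8, 2 and 2 SP1 matches with none to the other motifs. The sequences held 42, 40, 25 and 24 CpG dinucleotides in the order printed, where the median of 27305 promoters of that length was 11. Among the 49 receptors with a RefSeq promoter, 36 (73.5%) held an SP1 match, against 42.3% of all promoters, and the median CpG number was 20. E-box matches were in 18.4% of receptor promoters and 17.5% of all, AP-1 in 8.16% and 6.60%, SMAD in 10.2% and 13.6%, TEAD in 6.12% and 11.9%, and TCF/LEF in 4.08% and 11.4%. A match describes the letters and was not tested as a binding site. The SP1 motif itself holds a CpG, so its share and the CpG number are not separate observations. Motif shares were not compared at equal CpG number or base composition.

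The first comparison asks how the metastasis-derived line differs from the primary tumour line of the same patient. SW620 had less RNA of EGFR, FGFR2, AXL, EPHB4, EPHA4, ROR2 and ALK and more of MET, FGFR4, ERBB3, EPHB2, EPHB3, PTK7 and EPHA3. Differences are given as log2 fold changes (SW620 over SW480, so 1 is a doubling) with their standard error, and as p-values from edgeR's quasi-likelihood test with Benjamini-Hochberg adjustment over all genes tested, with a threshold of 0.05. Of the 54 receptors, 42 had enough counts to be tested and 22 passed, 8 higher and 14 lower in SW620. That is 52.4% of those tested, where 30.5% of all 20941 genes tested passed (13.5% higher and 17.0% lower). Library values did not overlap between the lines for 29 of the 42 (69.0%), where 46.0% of all genes tested did not overlap. At an unadjusted p under 0.05 there were 25 of the 42 tested receptors, against 8524 (40.7%) of all 20941 genes tested. Of the 22 receptors, 20 differed by at least 2-fold. The median log2 fold change over the 42 was -0.16 and the median size 0.98, where all genes tested had 0.03 and 0.53. Low counts kept INSRR, PDGFRA, KIT, FLT3, NTRK3, MUSK, TIE1, TEK, EPHA6, EPHB1, RET and ROS1 out of the test.

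**Figure D2:**
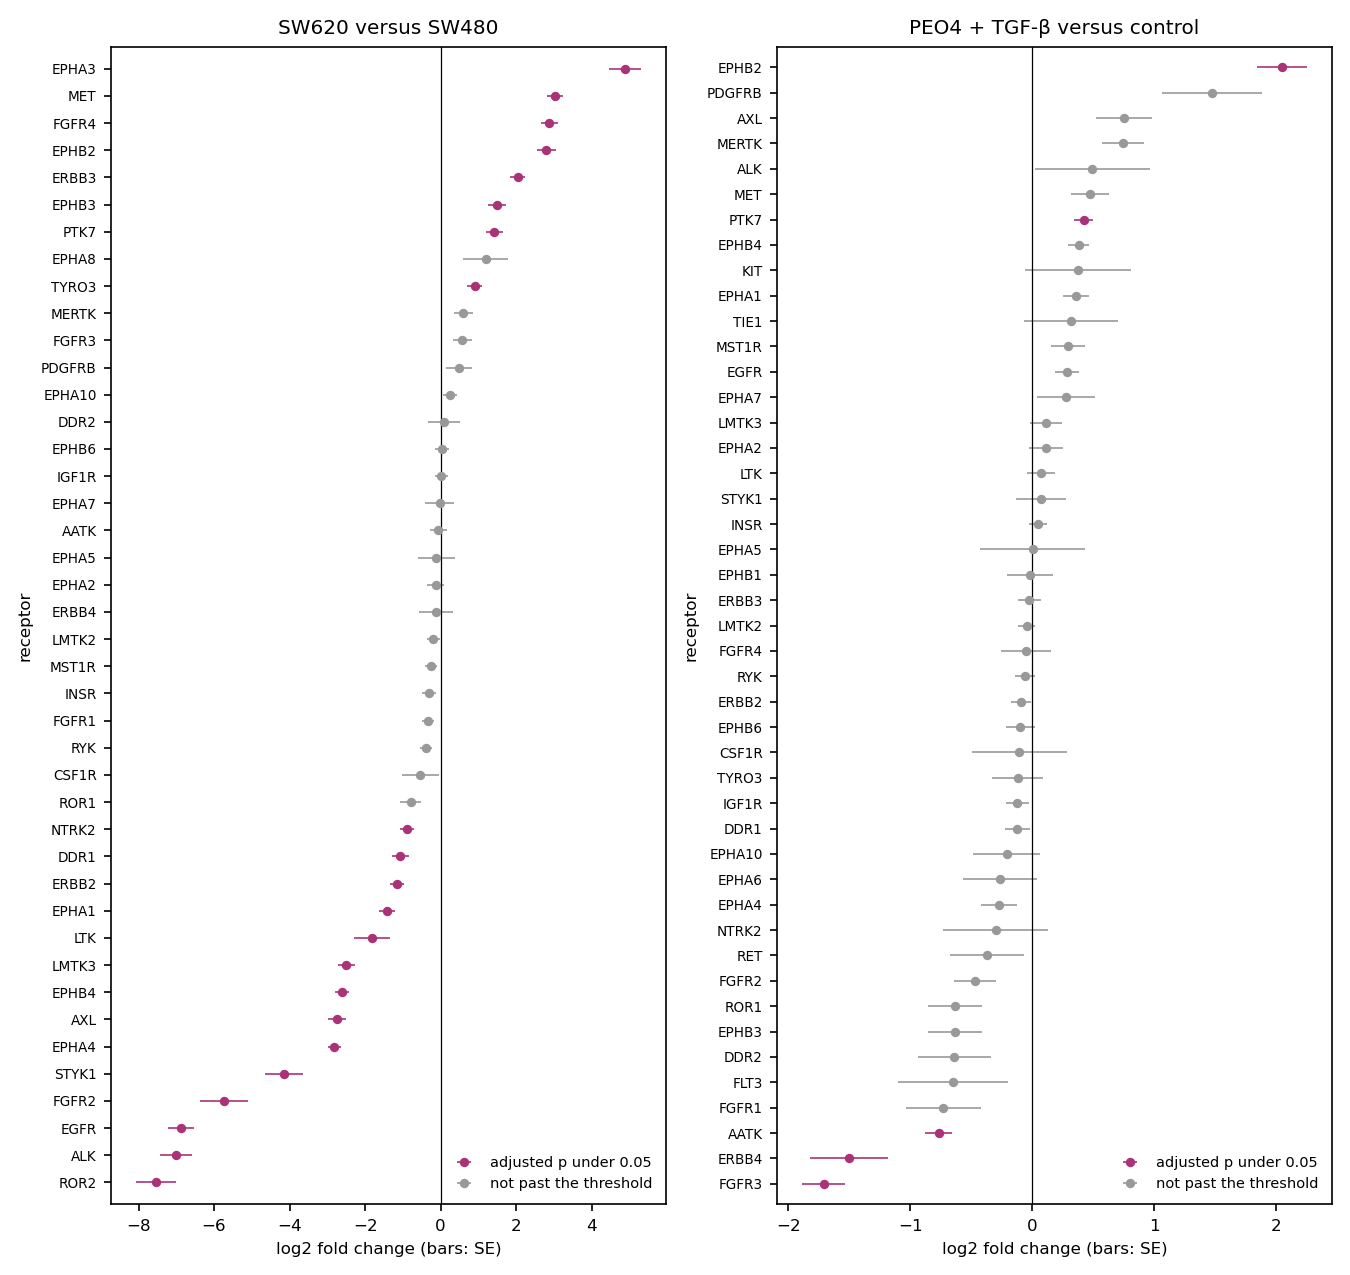
Log2 fold change (horizontal axes, with bars for the standard error) of every tested receptor, SW620 over SW480 on the left (42 receptors) and PEO4 with TGF-β over control on the right (45 receptors), ordered by size, with purple for an adjusted p under 0.05. The left panel spans -7.53 (ROR2) to 4.87 (EPHA3) and the right one -1.71 (FGFR3) to 2.05 (EPHB2), on different scales.

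In the ErbB family, which binds EGF-like growth factors, EGFR and ERBB3 differed in opposite directions. EGFR, the receptor for EGF and TGF-α (chromosome 7, 55019021 to 55211628, + strand, GENCODE 29), had 194, 123 and 143 CPM in SW480 replicates 1 to 3 and 1.47, 0.895 and 1.54 CPM in SW620. Every SW620 library was far below every SW480 library. The log2 fold change was -6.87 ± 0.34, or 117-fold lower (edgeR adjusted p = 3.21e-06). SW620 replicate 3 held 34 EGFR counts, where 1.09% of the PEO4 level would give 35.0, and replicates 1 and 2 held 26 and 13. Without replicate 3 the log2 fold change was -7.14, and how much of these counts is RNA of PEO4 type was not tested.

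ERBB3, the neuregulin receptor that signals through its partners, had 69.9, 66.2 and 67.7 CPM in SW480 and 305, 260 and 294 CPM in SW620. The SW480 libraries lay close together and all SW620 libraries lay above them. Its log2 fold change was 2.04 ± 0.19 (edgeR adjusted p = 7.54e-05). ERBB2, the ligandless partner of the family, had 130, 119 and 128 CPM in SW480 and 59.5, 54.3 and 59.2 CPM in SW620. It was lower in each SW620 library (log2 fold change -1.16 ± 0.18, edgeR adjusted p = 0.00129). ERBB4 had 2.92 CPM or less in every SW library and did not pass (log2 fold change -0.13 ± 0.45). Per kb of exon, EGFR made up 37.8% ± 4.74 of ErbB RNA in SW480 and 0.275% ± 0.0585 in SW620, and ERBB3 23.6% ± 1.96 and 84.4% ± 0.477 (SD, n = 3). The ErbB sum itself was 32.1 ± 3.63 CPM per kb in SW480 and 37.5 ± 2.89 in SW620.

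Among FGF receptors, FGFR4 was higher and FGFR2 lower in SW620. FGFR4, which with its co-receptor binds FGF19 (chromosome 5, 177086886 to 177098144, + strand), had 20.1, 27.9 and 18.9 CPM in SW480 and 142, 168 and 184 CPM in SW620. The groups were well separated, with a log2 fold change of 2.87 ± 0.22 (edgeR adjusted p = 2.35e-05). FGFR2, an epithelial receptor for FGF7 and FGF10 in one of its splice forms, had 23.0, 14.3 and 20.4 CPM in SW480 and 0.113, 0.0688 and 0.772 CPM in SW620. Replicates 1 and 2 of SW620 were at or under the floor and replicate 3 stood above them with 17 counts, where 1.09% of the PEO4 level would give 12. The log2 fold change was -5.74 ± 0.64 (edgeR adjusted p = 0.000192) and -7.74 without that library. FGFR1 (-0.35 ± 0.16) and FGFR3 (0.57 ± 0.26) did not pass, although their library values did not overlap between the lines. FGFR1 made up 58.7% ± 0.821 of FGF receptor RNA per kb in SW480 and 20.7% ± 1.84 in SW620, and FGFR4 23.7% ± 3.35 and 76.4% ± 2.06.

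MET, the receptor for hepatocyte growth factor, which drives cell scattering (chromosome 7, 116672390 to 116798386, + strand), had 22.5, 29.2 and 25.7 CPM in SW480. In SW620 it had 223, 192 and 223 CPM. Each SW620 library was thus several times above each SW480 library, with a log2 fold change of 3.02 ± 0.21, or 8.12-fold (edgeR adjusted p = 1.24e-05). Its relative MST1R, the receptor for macrophage-stimulating protein, had 115, 118 and 89.5 CPM in SW480 and 89.9, 114 and 74.7 CPM in SW620. The MST1R values overlapped and did not pass (log2 fold change -0.27 ± 0.16). MET was 15.3% ± 2.44 of the pair's RNA per kb in SW480 and 63.2% ± 6.91 in SW620.

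The TAM receptors, a family whose ligands include GAS6 and PROS1, bridging proteins to dying cells, did not move together. Not every member binds both ligands. AXL, a member often found in mesenchymal-like tumour cells (chromosome 19, 41219203 to 41261766, + strand), had 336, 205 and 245 CPM in SW480 and 43.1, 42.7 and 35.7 CPM in SW620. SW480 replicate 1 was the highest library, and all SW480 libraries were above all SW620 libraries. The log2 fold change was -2.75 ± 0.23 (edgeR adjusted p = 3.90e-05). TYRO3 had 36.4, 29.4 and 38.0 CPM in SW480 and 59.5, 67.1 and 71.8 CPM in SW620. It was higher in every SW620 library (0.90 ± 0.21, edgeR adjusted p = 0.0103). MERTK was at 3.46 to 4.65 CPM in SW480 and 5.86 to 7.07 CPM in SW620. It did not pass (0.60 ± 0.26, adjusted p = 0.115). AXL made up 92.4% ± 1.51 of TAM RNA per kb in SW480 and 51.3% ± 3.92 in SW620.

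The Wnt-binding and neurotrophin receptors changed in both directions. ROR2, a receptor for WNT5A (chromosome 9, 91563091 to 91950162, - strand), had 20.6, 13.9 and 19.2 CPM in SW480 and 0.170, 0.138 and 0 CPM in SW620. All SW620 libraries were at or under the floor of 3 counts. Over the group, SW480 had 953 counts and SW620 had 5, a ratio of 198 per library size (95% exact interval 84.4 to 610, counting error only), and the edgeR adjusted p was 1.45e-05. ROR1 had 24.4, 14.4 and 21.1 CPM in SW480 and 10.5, 11.4 and 13.4 CPM in SW620. It did not pass (-0.80 ± 0.27, edgeR adjusted p = 0.0539), although its values did not overlap. PTK7, a Wnt co-receptor of planar cell polarity, had 116, 102 and 131 CPM in SW480 and 311, 296 and 349 CPM in SW620. PTK7 was higher in each SW620 library (1.42 ± 0.22, edgeR adjusted p = 0.00141). NTRK2, the receptor for BDNF, had 19.1, 22.8 and 22.4 CPM in SW480 and 10.7, 12.5 and 12.2 CPM in SW620. This smaller difference passed (-0.90 ± 0.19, edgeR adjusted p = 0.00629), but not without SW620 replicate 1 (0.0501). RYK, another Wnt receptor, did not pass (-0.39 ± 0.15, adjusted p = 0.0845).

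ALK, best known from its fusions in lymphoma and lung cancer (chromosome 2, 29192774 to 29921566, - strand), had 11.3, 17.7 and 9.46 CPM in SW480 and 0.0566, 0.138 and 0.0908 CPM in SW620. No SW620 library held more than 2 counts. SW480 had 650 counts in all and SW620 had 5, a ratio of 135 per library size (95% exact interval 57.4 to 416), with an edgeR adjusted p of 7.42e-06. Its relative LTK was low, at 2.09 to 3.40 CPM in SW480 and 0.396 to 1.24 CPM in SW620. It was lower there (-1.81 ± 0.47, edgeR adjusted p = 0.0185). LTK lost this call without SW480 replicate 1, SW480 replicate 2 or SW620 replicate 1, where the adjusted p was between 0.0533 and 0.0742.

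DDR1, a collagen receptor of epithelial cells, had 271, 247 and 286 CPM in SW480 and 129, 112 and 149 CPM in SW620. All SW620 libraries were below all SW480 libraries (-1.07 ± 0.23, edgeR adjusted p = 0.00678), but the call was lost without SW620 replicate 1 (adjusted p = 0.0589). DDR2, its counterpart in connective tissue, was at 1.64 CPM or less in every SW library and did not pass. LMTK3 had 15.9, 19.5 and 13.3 CPM in SW480 and 2.94, 3.72 and 2.27 CPM in SW620. It was lower in each SW620 library (-2.50 ± 0.22, edgeR adjusted p = 5.46e-05), and STYK1, at 2.56 to 3.95 CPM in SW480 and at most 0.344 CPM in SW620, was lower as well (-4.14 ± 0.50, 0.000304). At 1.09% of their PEO4 level, LMTK3, LTK and STYK1 would give 10.5%, 20.8% and 33.8% of their counts in SW620 replicate 3. Without that library their log2 fold changes were -2.44, -1.82 and -4.03, and all of them passed. The insulin receptor family did not pass, with IGF1R at 234 to 245 CPM in SW480 and 229 to 280 CPM in SW620. INSR was at 66.4 to 77.4 and 52.9 to 73.5 CPM.

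**Figure D3:**
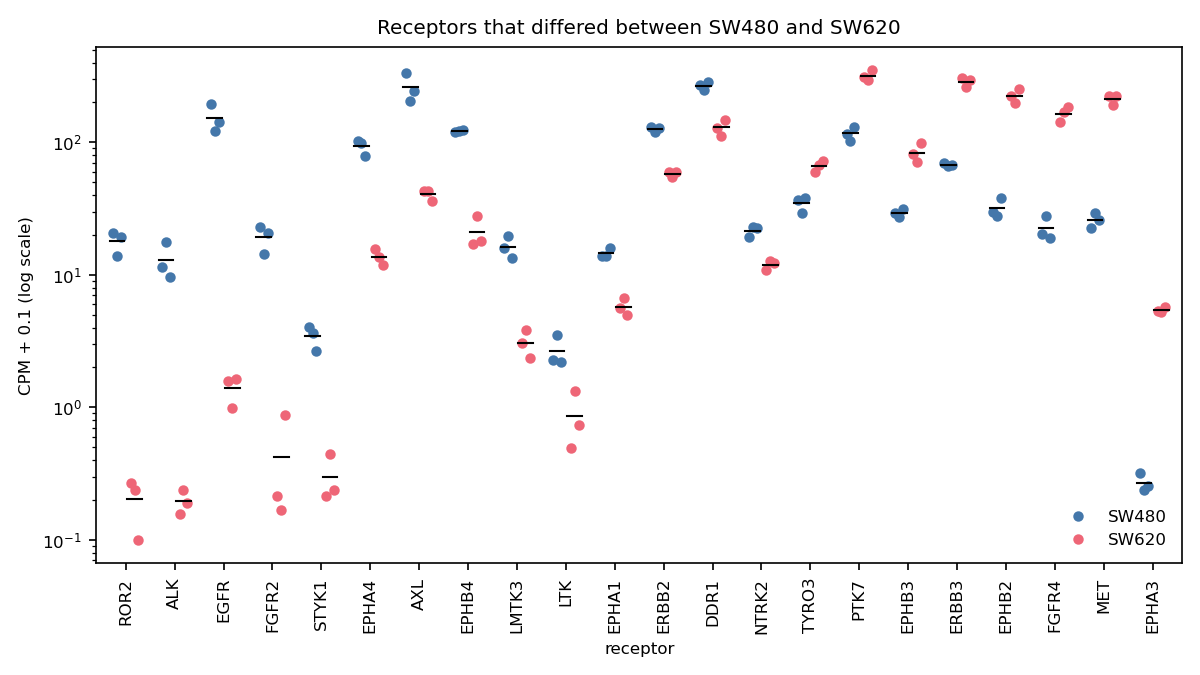
CPM + 0.1 on a log axis for the 22 receptors that passed the test between SW480 and SW620, ordered by log2 fold change, with 1 point per library (3 per line) and a bar at the mean. The points of SW480 and SW620 do not overlap for any of them, from ROR2 on the left to EPHA3 on the right.

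The Eph receptors changed in composition, with summed levels per kb of 121 ± 8.01 in SW480 and 118 ± 12.3 in SW620 (SD, n = 3). Of the 14, 12 were tested, and 3 were higher and 3 lower, where 30.5% of all genes tested passed (13.5% higher and 17.0% lower). Outside the family, 16 of the 30 tested receptors passed, and the difference from the Eph share was not tested. EPHB2 (chromosome 1, 22710839 to 22921500, + strand) had 29.9, 27.9 and 37.6 CPM in SW480 and 223, 199 and 254 CPM in SW620. All SW620 libraries stood well above SW480, with a log2 fold change of 2.79 ± 0.25, or 6.93-fold (edgeR adjusted p = 5.57e-05). EPHB3, its partner in the crypt, had 29.1, 27.1 and 31.3 CPM in SW480 and 80.9, 70.7 and 99.5 CPM in SW620. It was higher in each SW620 library as well (1.50 ± 0.24, edgeR adjusted p = 0.00135).

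EPHB4, the receptor for EFNB2 that marks venous endothelium and many carcinomas (chromosome 7, 100802565 to 100827521, - strand), had 121, 122 and 124 CPM in SW480 and 17.1, 27.5 and 17.9 CPM in SW620. It went the other way from EPHB2 and EPHB3 (-2.61 ± 0.19, edgeR adjusted p = 1.69e-05). EPHA4, which binds ephrins of both classes, had 102, 98.4 and 79.4 CPM in SW480 and 15.6, 13.6 and 11.7 CPM in SW620. It was lower in every SW620 library (-2.82 ± 0.17, edgeR adjusted p = 7.12e-06). EPHA1 had 13.9, 13.9 and 15.9 CPM in SW480 and 5.55, 6.54 and 4.90 CPM in SW620. Its values did not overlap either (-1.42 ± 0.21, edgeR adjusted p = 0.000859).

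EPHA3 (chromosome 3, 89107524 to 89482134, + strand) had 0.217, 0.136 and 0.157 CPM in SW480 and 5.26, 5.16 and 5.63 CPM in SW620. SW480 was near the floor, with 9 counts in all against 292, a ratio of 31.3 per library size (95% exact interval 16.3 to 69.1), and the edgeR adjusted p was 4.54e-05. EPHA2 had 287, 229 and 252 CPM in SW480 and 266, 195 and 254 CPM in SW620. Its values overlapped and it did not pass (-0.13 ± 0.23), nor did EPHB6, at 66.6 to 86.7 and 78.3 to 85.0 CPM (0.03 ± 0.19). EPHA10, EPHA8, EPHA7 and EPHA5 did not pass and were at or under 14.0 CPM in every SW library.

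**Figure D4:**
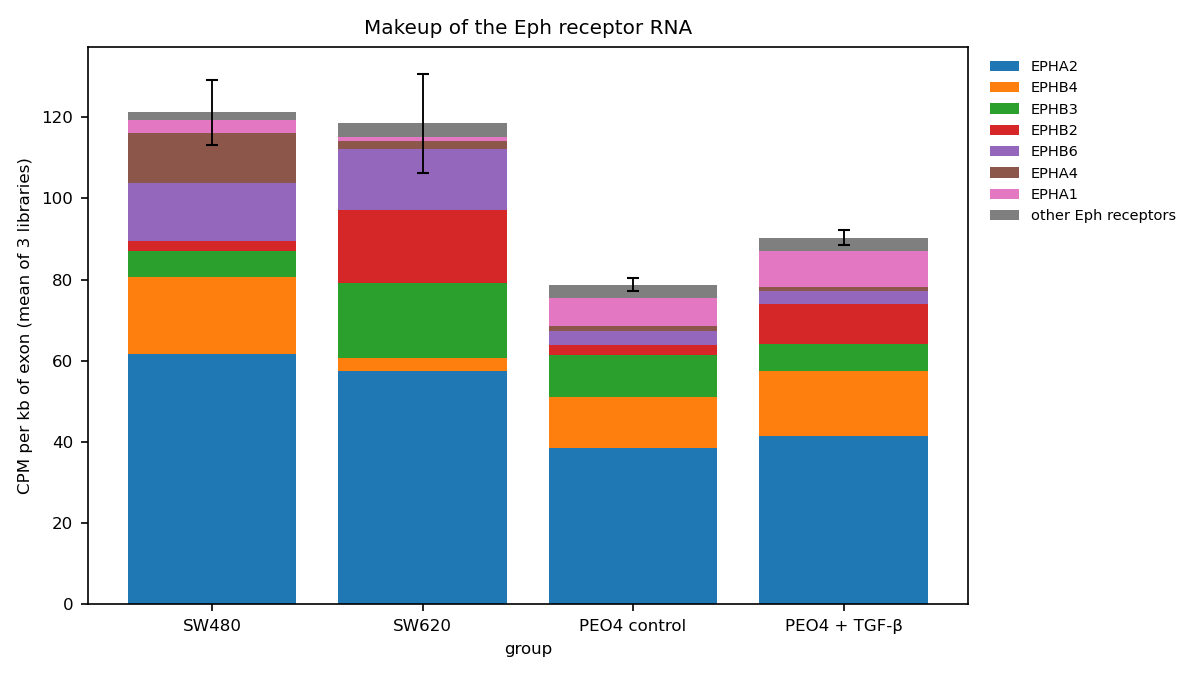
Mean CPM per kb of exon of the Eph receptors, stacked by receptor, in the 4 groups (horizontal axis), with error bars for the SD of the summed level over 3 libraries. EPHA2 is the lowest and widest block in every group, EPHB4 and EPHA4 shrink and EPHB2 and EPHB3 widen from SW480 to SW620, and EPHB2 widens from PEO4 control to TGF-β.

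As shares of Eph RNA per kb, EPHB4 went from 15.7% ± 1.09 in SW480 to 2.81% ± 1.12 in SW620 and EPHA4 from 10.2% ± 1.47 to 1.54% ± 0.273. EPHB2 went from 2.10% ± 0.325 to 15.2% ± 0.845 and EPHB3 from 5.32% ± 0.348 to 15.5% ± 1.58. EPHA2 held 50.7% ± 2.50 and 48.2% ± 3.22 (SD, n = 3). These shares restate the levels above within the family and carry no test of their own.

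The ephrins, the ligands of these receptors, passed the test between the SW lines at every gene. All 8 were tested and passed with edgeR, 3 higher and 5 lower in SW620, where 30.5% of all genes tested passed. EFNB1 (chromosome X, 68828997 to 68842147, + strand) had 365, 248 and 318 CPM in SW480 and 24.6, 19.5 and 24.7 CPM in SW620. EFNB2, the ligand of EPHB4 (chromosome 13, 106489731 to 106535662, - strand), had 14.3, 12.4 and 12.2 CPM in SW480 and 215, 168 and 191 CPM in SW620. So the B-class ligand with the most RNA was EFNB1 in SW480 and EFNB2 in SW620, with log2 fold changes of -3.79 ± 0.27 and 3.85 ± 0.21 (edgeR adjusted p = 1.52e-05 and 5.33e-06). EFNA2 (2.12 ± 0.38) and EFNA1 (1.18 ± 0.23) were also higher, and EFNA4 (-4.33 ± 0.40), EFNA5 (-3.30 ± 0.86), EFNB3 (-1.79 ± 0.27) and EFNA3 (-1.55 ± 0.41) lower. EFNA5 in SW620 rested mostly on replicate 3, where 1.09% of the PEO4 level would give 102.6% of its counts, and its log2 fold change was -5.78 without that library. EFNA5 lost its call without SW480 replicate 1 (edgeR adjusted p = 0.0622) or SW620 replicate 1 (0.0852), and EFNA3 without SW480 replicate 3 (0.107) or SW620 replicate 1 (0.0633). On the strand opposite EFNB2, AL138689.2 overlaps 26.2% of its exon length, and AL691442.1 shares 44.7% of that of EFNA3 on the same strand, so reads may be split or mixed.

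Other ligands were mostly lower in SW620. Of 27 tested ligands outside the ephrins and the EGF family, 1 was higher and 14 were lower (55.6%), where 30.5% of all genes tested passed, 13.5% higher and 17.0% lower. PROS1, a TAM receptor ligand, was higher (1.89 ± 0.23). Lower were WNT5A (-8.11 ± 0.50), a ligand of ROR2, IGF2 (-4.97 ± 0.28), BDNF (-4.60 ± 0.29), PDGFB (-3.68 ± 0.22), PDGFC (-3.96 ± 0.75), FGF1 (-2.97 ± 0.59), FGF9 (-2.62 ± 0.29), CSF1 (-2.10 ± 0.49), MDK (-1.56 ± 0.31) and MST1 (-0.83 ± 0.26). The SW480 and SW620 means of WNT5A were 256 ± 40.0 and 1.03 ± 0.782 CPM (SD, n = 3). IGF2 had 458 ± 146 and 15.2 ± 3.49 CPM. IGF1, FGF20, NTF3 and NTF4 were lower as well, from means of 0.956 to 6.22 CPM in SW480, and NTF3 had 0 counts in every SW620 library, at least 26.8-fold lower against a floor of 3 counts per library. In SW620, PDGFC had 1, 1 and 10 counts. In replicate 3, 1.09% of the PEO4 level would give 100.4% of them, and the log2 fold change was -5.76 without that library. FGF1 stood at -3.56 without SW620 replicate 2. MST1 lost its call in 6 of 14 alternative analyses, with adjusted p between 0.0591 and 0.166, and NTF4 in 3, without SW480 replicate 1, SW480 replicate 2 or SW620 replicate 1 (0.0676 to 0.108). Exons of INS-IGF2 and other genes on the same strand cover 99.97% of the exon length of IGF2, and HELLPAR on the opposite strand 82.4% of that of IGF1, so the values of both are uncertain. In the EGF family, 1 of 7 tested ligands passed, NRG2 (-2.57 ± 0.24).

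Of 28 tested adaptors and negative regulators, 6 were higher and 7 lower in SW620 (46.4%, against 30.5% of all genes tested). The higher ones were CBLB, an E3 ligase that removes active receptors (1.42 ± 0.24), the adaptors GRB7 (1.35 ± 0.18) and GAB2 (0.82 ± 0.15), and the brakes ERRFI1 (1.25 ± 0.26), LRIG1 (1.17 ± 0.22) and SPRED1 (0.60 ± 0.18). CBLC (-2.18 ± 0.62), GAB1 (-1.85 ± 0.28), GRB10 (-1.18 ± 0.17), the phosphatases PTPN1 (-0.99 ± 0.25) and PTPRJ (-0.64 ± 0.19), IRS1 (-0.73 ± 0.19) and SOCS5 (-0.70 ± 0.19) were lower. Of these 13, 6 lost the call in some of the 14 alternative analyses (13 for CBLC), SPRED1 in 6, PTPRJ in 5, CBLC and SOCS5 in 4 each, and PTPN1 and IRS1 in 3 each. The highest adjusted p was 0.177, for PTPRJ without SW480 replicate 1, and all 6 lost the call without that library and also without SW620 replicate 1. CBLC had 2, 4 and 9 counts in SW620. In replicate 3, 1.09% of the PEO4 level would give 99.98% of these, and its log2 fold change was -2.84 without that library. ERRFI1 and LRIG1, inhibitors of EGFR and its relatives, had means of 36.4 ± 6.78 and 55.3 ± 10.1 CPM in SW480 and 88.7 ± 14.8 and 128 ± 7.93 CPM in SW620. Counting on strand is not given in the sources used here, so exons shared with genes on the opposite strand add uncertainty for ERBB2 (7.41% of its exon length), MST1R (6.78%), EPHA4 (4.67%), and among the other genes for LRIG1 (12.9%), BDNF (9.06%) and NRG2 (5.18%).

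The second comparison asks what TGF-β does to PEO4 cells, and 5 receptors passed with edgeR. This number depended on the method, with 6 higher and 3 lower by DESeq2 and 1 and 1 with all 12 libraries in the fit. Over all genes, 967 passed with DESeq2 and 165 with all 12 libraries, against 431 in the main edgeR fit. EPHB2 and PTK7 rose and FGFR3, ERBB4 and AATK fell with TGF-β. Of the 54 receptors 45 were tested, and 5 passed (11.1% of those tested), 2 higher and 3 lower. Of all 19064 genes tested, 2.26% passed, 1.27% higher and 0.991% lower. Library values did not overlap for 11 of the 45 (24.4%), where 20.7% of all genes tested did not overlap. At an unadjusted p under 0.05 there were 16 of the 45 tested receptors, against 3175 (16.7%) of all 19064 genes tested. The median size of the log2 fold change was 0.29 over the receptors and 0.18 over all genes tested. Too low for the test were INSRR, PDGFRA, NTRK3, ROR2, MUSK, TEK, EPHA3, EPHA8 and ROS1.

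EPHB2 had 41.9, 25.0 and 24.0 CPM in PEO4 control replicates 1 to 3 and 124, 124 and 126 CPM with TGF-β. The treated libraries were almost equal and lay far above all control libraries. The log2 fold change (TGF-β over control) was 2.05 ± 0.20, or 4.14-fold (edgeR adjusted p = 0.00233), and EPHB2 passed in all 14 alternative analyses. Of 12 tested Eph receptors, EPHB2 was the 1 that passed, where 2.26% of all genes tested passed. Its share of Eph RNA per kb was 3.07% ± 1.00 in control and 11.0% ± 0.282 with TGF-β (SD, n = 3).

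Other B-class Eph receptors did not follow EPHB2 past the threshold. EPHB3 had 34.1, 40.1 and 67.7 CPM in control and 26.6, 25.9 and 38.0 CPM with TGF-β. Its values overlapped (-0.63 ± 0.22, edgeR adjusted p = 0.201). EPHB4 had 76.2, 73.0 and 90.2 CPM in control and 102, 95.6 and 111 CPM with TGF-β. These did not overlap, but EPHB4 missed the threshold (0.38 ± 0.08, edgeR adjusted p = 0.0546), as did EPHA1 (0.36 ± 0.11, 0.140). EPHB6 (-0.10 ± 0.12), EPHB1 (-0.02 ± 0.19) and EPHA2 (0.12 ± 0.14) did not pass, and EPHA2 was at 137 to 173 CPM in control and 153 to 193 CPM with TGF-β.

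FGFR3 (chromosome 4, 1793293 to 1808872, + strand), an FGF receptor often altered in bladder cancer, had 35.8, 44.3 and 61.0 CPM in control and 14.2, 15.4 and 12.9 CPM with TGF-β. Every treated library was below every control library. The log2 fold change was -1.71 ± 0.18, or 3.27-fold lower (edgeR adjusted p = 0.00233), and FGFR3 passed in all 14 alternative analyses. FGFR2 had 49.4, 61.9 and 62.7 CPM in control and 29.6, 48.6 and 46.0 CPM with TGF-β. It was lower without overlap but did not pass (-0.47 ± 0.17, edgeR adjusted p = 0.215), and neither did FGFR1 (-0.73 ± 0.31) or FGFR4 (-0.05 ± 0.20). Per kb, the FGF receptors summed to 19.7 ± 4.01 CPM in control and 10.5 ± 1.79 with TGF-β, and FGFR3 made up 48.7% ± 3.56 and 28.3% ± 5.87 of that sum.

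ERBB4 (chromosome 2, 211375717 to 212538841, - strand) had 55.8, 125 and 99.4 CPM in control and 18.8, 41.9 and 36.8 CPM with TGF-β. The spread was wide, with replicate 1 the lowest in both groups, but the groups did not overlap. Its log2 fold change was -1.50 ± 0.32 (edgeR adjusted p = 0.0496), just inside the threshold, and it passed in 5 of 14 alternative analyses, with adjusted p between 3.47e-14 and 0.224. It lost the call without each PEO4 library other than control replicate 1, among them control replicate 2 (0.224). The other ErbB receptors did not pass. EGFR was at 120 to 138 CPM in control and 137 to 184 CPM with TGF-β (0.28 ± 0.10, adjusted p = 0.198), ERBB2 at 275 to 314 and 265 to 277 CPM, and ERBB3 at 151 to 191 and 146 to 173 CPM. ERBB4 was 11.0% ± 3.82 of ErbB RNA per kb in control and 4.17% ± 1.44 with TGF-β.

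AATK, a kinase of the lemur family that is known mainly from nerve cells (chromosome 17, 81117295 to 81166077, - strand), had 20.5, 24.7 and 26.3 CPM in control and 12.7, 13.5 and 15.3 CPM with TGF-β. All treated libraries were lower (-0.77 ± 0.11, edgeR adjusted p = 0.0131), and AATK passed in 10 of 14 alternative analyses. It lost the call without control replicate 2 (0.0840), without TGF-β replicate 1 (0.0649), without TGF-β replicate 2 (0.0682) and with all 12 libraries in the fit (0.0532). Its exons overlap BAIAP2 and PVALEF on the other strand over 3.28% of their length. PTK7 (chromosome 6, 43076268 to 43161719, + strand) had 92.9, 88.0 and 93.7 CPM in control and 122, 123 and 119 CPM with TGF-β. Both groups were tight and did not overlap, and the rise was small (0.42 ± 0.08, 1.34-fold, edgeR adjusted p = 0.0277). It passed in 9 of 14 alternative analyses and lost the call with all 12 libraries (0.443) and without control replicate 2 (0.151), control replicate 3 (0.0827), TGF-β replicate 1 (0.124) or TGF-β replicate 2 (0.132).

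**Figure D5:**
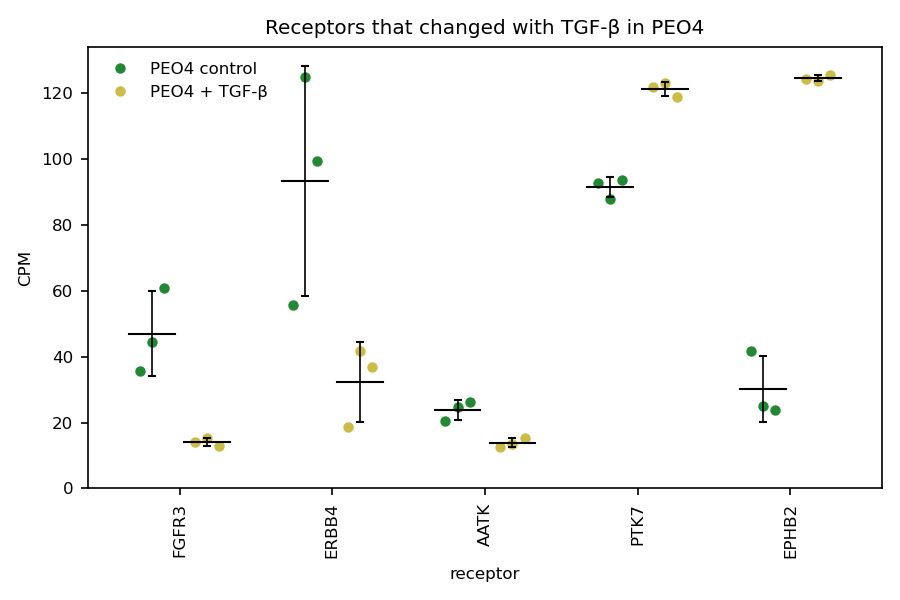
CPM of the 5 receptors that passed the test in PEO4, with 1 point per library (3 per group), a bar at the mean and whiskers for the SD, control in green and TGF-β in yellow. The treated EPHB2 points lie together at 124 to 126 CPM above control points at 24.0 to 41.9, and the ERBB4 control points spread from 55.8 to 125 CPM.

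AXL, MERTK and MET, called by DESeq2, did not pass in PEO4 with edgeR. AXL had 55.3, 28.2 and 33.7 CPM in control and 73.3, 55.0 and 69.2 CPM with TGF-β. Control replicate 1 was above treated replicate 2, and the log2 fold change was 0.76 ± 0.23 (edgeR adjusted p = 0.144). MERTK had 4.83, 6.94 and 7.92 CPM in control and 10.1, 10.9 and 11.6 CPM with TGF-β, without overlap (0.75 ± 0.17, edgeR adjusted p = 0.0657). MET, the most abundant receptor per kb in treated cells, had 323, 211 and 237 CPM in control and 360, 313 and 393 CPM with TGF-β. Control replicate 1 overlapped the treated range and MET did not pass (0.48 ± 0.16, edgeR adjusted p = 0.175). PDGFRB, at 0.249 to 0.488 CPM in control and 0.883 to 1.25 CPM with TGF-β, had a log2 fold change of 1.48 ± 0.41 (edgeR adjusted p = 0.110), ROR1 had -0.63 ± 0.22 (0.196) and DDR2 -0.64 ± 0.30 (0.324). In the authors' deposited table, where 5.66% of genes passed, 6 receptors were higher and 3 lower in PEO4, the higher ones being EPHB2, PTK7, AXL, MERTK, EPHB4 and MET. DESeq2 run here on the same counts also gave 6 and 3, with 967 of all 19064 genes passing.

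Of the 40 ligands tested in PEO4, 2 rose and 1 fell (7.50%, where 2.26% of all genes passed). ARTN, a ligand of the RET complex, had 13.0, 5.85 and 7.53 CPM in control and 28.5, 19.2 and 26.3 CPM with TGF-β. PDGFB had 10.2, 8.51 and 7.72 CPM and then 17.2, 16.6 and 14.1 CPM. Both were higher in every treated library, by 1.49 ± 0.27 and 0.87 ± 0.16 (edgeR adjusted p = 0.0281 and 0.0301). EREG, an EGF-family ligand, had 19.2, 19.0 and 11.3 CPM in control and 8.47, 7.03 and 7.57 CPM with TGF-β. It was lower in every treated library (-1.09 ± 0.22, edgeR adjusted p = 0.0398). ARTN and PDGFB passed in 9 of 14 alternative analyses each and EREG in 8. ARTN, PDGFB and EREG all lost the call without control replicate 2 (adjusted p = 0.130, 0.160 and 0.202), TGF-β replicate 1 (0.112, 0.127 and 0.110) or TGF-β replicate 2 (0.0682, 0.128 and 0.166).

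None of the 7 tested ephrins passed in PEO4 with edgeR, where 2.26% of all genes tested passed. An edgeR unadjusted p under 0.05 was found for 4 of the 7 (16.7% of all genes tested), and DESeq2 and limma-voom called none. Of the 29 adaptors and negative regulators, edgeR called 0, with 9 at an unadjusted p under 0.05, against the same 16.7% of all genes. For these 29, limma-voom called 0 and DESeq2 called 2, both higher. Over all 19064 genes tested, limma-voom called 433 and DESeq2 967. With so few genes called, 0 calls in such short lists say little about a response.

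EPHB2 and PTK7 were higher in SW620 than in SW480 and higher with TGF-β in PEO4, in libraries that the comparisons do not share. FGFR3, ERBB4 and AATK, which fell with TGF-β, did not pass between the SW lines, where their log2 fold changes were 0.57 ± 0.26, -0.13 ± 0.45 and -0.06 ± 0.23. In PEO4, EPHB2 and FGFR3 kept their calls in all alternative analyses. The PEO4 calls of PTK7 and AATK were lost in some of them and that of ERBB4 in most. With edgeR, EGFR, MET, FGFR4, AXL, EPHB4 and ERBB3 passed between the SW lines but not in PEO4, where DESeq2 and the authors' deposited table called MET, AXL and EPHB4 higher with TGF-β. Whether the effects differ between the comparisons was not tested.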

How the data were processed

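RNA from 12 libraries was sequenced, and per the submitters' processing notes reads were handled with Trimmomatic 0.36, STAR 2.5.2b, featureCounts (Subread 1.5.2) and DESeq2 on GRCh38. Annotation release and strand setting are not given in the sources used here. The authors deposited raw counts for 57500 Ensembl genes, of which 485 had no symbol. The authors' deposited tables, per the file headers, give log2 fold changes and adjusted p-values, used here only where named. 12 further columns of per-sample values in those tables were not used. Samples were grouped by their titles.

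Each comparison was fitted on its 6 libraries in edgeR 4.0.16 (R 4.3.3): filterByExpr (minimum count 10, total 15), TMM scaling, glmQLFit and a two-sided glmQLFTest, Benjamini-Hochberg over all genes, threshold 0.05. Standard errors are the size of the log2 fold change divided by the root of its F value. The common coefficient of biological variation came to 0.274 (SW) and 0.152 (PEO4). The code was tested on simulated counts. CPM used library totals and exon lengths and positions came from GENCODE 29 (56898 IDs found), which may not be the annotation counted on. An exact permutation test of 3 against 3 cannot go below p = 0.1.

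Named are all receptors past the threshold, with library values from a mean of 5 CPM upwards, the highest receptors per group, and list genes past the threshold. The members and lists were chosen with earlier results of these data known. Alternatives were DESeq2 1.42.0, limma-voom (limma 3.58.1), RLE or total scaling, a filter of 10 counts in each library or none, all 12 libraries, the replicate number as a block, and leaving out each library.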

Additional observations from a re-analysis of the deposited data

How the results depend on the processing

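Between the SW lines, the 8 higher and 14 lower receptors stayed within 1.5 times of these counts in every alternative. Over all genes, 6385 passed, 10667 with the replicate block, and 4253 to 7419 when 1 library was left out, the lowest without SW480 replicate 1. In PEO4, 431 genes passed, 967 with DESeq2, 1457 without a filter, 165 with all 12 libraries and 2102 with the replicate block. Leaving out 1 library gave 72 (without control replicate 2) to 1080 (without control replicate 1), with 1 to 4 receptors higher and 1 to 4 lower. Receptors higher and lower in PEO4 were 2 and 3, 6 and 3 with DESeq2, 7 and 6 without a filter, 1 and 1 with all 12 libraries, and 9 and 7 with the replicate block. With the replicate block, 11 receptors were higher and 18 lower in SW620. The deviations of same-numbered libraries from their group means had correlations of 0.0159, 0.67 and 0.567 (SW) and 0.291, -0.14 and 0.481 (PEO4) across genes. Pair 1 of SW and pair 2 of PEO4 did not deviate together, and not every library correlated best with its own number. Within a group these deviations cancel out for each gene, so the correlations depend on each other. They cannot settle whether the numbers mark pairs. The main test did not take the numbers as pairs, and the replicate block is given as an alternative. The cause of the shifts in the counts of genes passing was not tested.

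The receptors that changed sign in an alternative all missed the threshold. Between the SW lines, scaling by totals gave log2 fold changes of 0.0129 for EPHA7 and 0.00719 for AATK, and leaving out 1 library gave ERBB4 -0.564 to 0.152, IGF1R -0.062 to 0.163, EPHA2 -0.301 to 0.112, EPHA5 -0.473 to 0.167, EPHA7 -0.199 to 0.26, EPHB6 -0.114 to 0.18, DDR2 -0.0811 to 0.296 and AATK -0.138 to 0.0753. In PEO4, ERBB3 was at 0.00538 without a filter and 0.0114 with all 12 libraries, EPHB1 at 0.00809 and 0.00698, and EPHA5 at -0.0821 with limma-voom, -0.00595 with totals and -0.0314 with the replicate block. Leaving out 1 PEO4 library gave ERBB3 -0.0635 to 0.0694, CSF1R -0.302 to 0.173, FGFR4 -0.259 to 0.109, TYRO3 -0.335 to 0.0492, EPHA5 -0.207 to 0.323, EPHA10 -0.344 to 0.0388, EPHB1 -0.145 to 0.152, LMTK2 -0.0636 to 0.00288 and STYK1 -0.0588 to 0.186. Low counts limit EPHA5, CSF1R, KIT, FLT3 and PDGFRB, whose means in PEO4 were at most 1.14 CPM.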

Other observations

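Examples of ligands without an edgeR call in either comparison are given here by their level in the ovarian and the colorectal lines. Other such ligands are not listed. The examples were chosen after their values were seen, and tissue, line and medium differ together. NRG1, a neuregulin that binds ERBB3 and ERBB4, had 59.9, 64.3 and 60.3 CPM in untreated PEO4, 41.4, 44.2 and 53.1 CPM in treated PEO4, and at most 0.908 CPM in the SW libraries, where it was too low to be tested. That highest SW value was SW620 replicate 3, with 20 counts, of which 1.09% of the PEO4 level would give 64.8%, and the other SW libraries held at most 0.272 CPM. FGF19, which binds FGFR4 with a co-receptor, had 163 to 228 CPM in SW480 and 111 to 198 CPM in SW620, but at most 1.96 CPM in PEO4. PDGFA had 366 to 403 CPM in SW480 and 282 to 312 CPM in SW620, but at most 4.04 CPM in PEO4. GAS6, a TAM receptor ligand, was at 95.2 to 174 CPM in all 12 libraries, and its SW and PEO4 ranges overlapped.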
